A study of Mus musculus with 9 samples.

Results

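The plasminogen activation system was described by 8 genes, selected by their symbols from the 24453 genes of the expression table. They encode both plasminogen activators (Plau and Plat), the urokinase receptor (Plaur), plasminogen itself (Plg) and 4 serpins (Serpine2, Serpinb2, Serpinf1 and Serpinf2). The list follows function and is not a complete catalogue of the system. It was drawn up with earlier results of these libraries known, so the adjusted p-values below, all taken over every gene tested, describe the members and are not independent support for the choice.

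The libraries were made from liver cells of C57BL/6J mice in 3 groups of 3. Hepatic stellate cells (HSCs), the vitamin A-storing pericytes of the liver, came from wild-type animals with healthy livers and were obtained by density gradient separation. CCl4-fib were fibroblasts from Col1a2-GFP Tg mice, which express green fluorescent protein under the collagen α2(I) promoter, after intraperitoneal CCl4, a hepatotoxin, at 1 ml/kg 2 times per week for 8 weeks. NASH-fib were fibroblasts from male Col1a2-GFP Tg mice that also lacked MC4R (MC-COL), given a Western diet for 20 weeks from an age of 8 weeks, a model of non-alcoholic steatohepatitis. Both fibroblast groups were sorted as CD45-, GFP+ and 7-AAD- cells, and each library pooled cells of 3 to 5 mice. The ages of the HSC and CCl4 animals were not given in the sources used here. The isolation method differed between HSCs and fibroblasts and the genotype and diet differed between the fibroblast groups, so these cannot be told apart from the group. In such bulk libraries, fewer cells of a type and less RNA per cell cannot be told apart either.

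Plasminogen circulates as an inactive proenzyme, made mainly by hepatocytes, and is cleaved to plasmin, the protease that dissolves fibrin and helps to break down matrix. Urokinase-type plasminogen activator (uPA, from Plau) works largely at the cell surface, bound to its receptor uPAR (Plaur), whereas tissue-type activator (tPA, from Plat) works best on fibrin. Serpins restrain both steps: protease nexin-1 (Serpine2) and plasminogen activator inhibitor 2 (Serpinb2) block the activators, and α2-antiplasmin (Serpinf2) blocks plasmin. Pigment epithelium-derived factor (Serpinf1) belongs to the family by sequence but is not an inhibitor of proteases.

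The regions before the start sites are shown for 4 serpin and receptor genes on which the comparisons below turn. Plaur and Serpinb2 differed between the fibroblast groups, and Serpinf1 and Serpinf2 are neighbours whose levels went in opposite directions. Each run holds the 250 bases before a RefSeq start site in GRCm38.p6 (mm10), read 5′ to 3′ on the strand of the gene, with motif matches in capitals. The RefSeq start sites used for Plaur and Serpinb2 lie at -17 and -87 relative to the starts in the expression table, and those of the other genes coincide. For Plaur the bases that follow this start site were not found in an annotated transcript of the gene, unlike those of the other entries.

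Plaur, chr7:24462233-24462482, plus strand: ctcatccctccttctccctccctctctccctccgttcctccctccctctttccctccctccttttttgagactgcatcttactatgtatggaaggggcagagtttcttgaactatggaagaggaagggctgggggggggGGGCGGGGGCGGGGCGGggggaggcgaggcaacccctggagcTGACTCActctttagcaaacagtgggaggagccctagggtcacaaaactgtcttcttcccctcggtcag

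Serpinb2, chr1:107511173-107511422, plus strand: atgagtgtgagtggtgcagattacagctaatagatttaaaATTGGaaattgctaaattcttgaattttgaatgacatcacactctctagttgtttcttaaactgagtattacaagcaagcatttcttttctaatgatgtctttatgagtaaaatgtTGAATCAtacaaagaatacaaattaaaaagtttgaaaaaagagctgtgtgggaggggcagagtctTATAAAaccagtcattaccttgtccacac

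Serpinf1, chr11:75422624-75422873, minus strand: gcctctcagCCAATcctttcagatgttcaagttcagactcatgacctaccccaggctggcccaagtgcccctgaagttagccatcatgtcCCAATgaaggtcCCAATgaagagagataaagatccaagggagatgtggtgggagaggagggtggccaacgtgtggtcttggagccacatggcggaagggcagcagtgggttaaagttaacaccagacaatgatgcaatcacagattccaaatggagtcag

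Serpinf2, chr11:75439502-75439751, minus strand: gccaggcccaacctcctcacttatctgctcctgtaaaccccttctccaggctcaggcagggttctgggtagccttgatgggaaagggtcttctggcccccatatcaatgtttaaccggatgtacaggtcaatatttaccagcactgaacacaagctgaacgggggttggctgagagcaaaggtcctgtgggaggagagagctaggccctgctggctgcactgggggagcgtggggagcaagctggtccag

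The capitals mark exact matches, on either strand, to 7 motifs chosen after the values were seen. The AP-1 motif TGANTCA matched in Plaur, at -69 to -63 from the start site, and in Serpinb2, at -94 to -88, and it is found in 6.75% of the 32851 promoter windows of the RefSeq table. Serpinb2 also held a TATAAA at -29 to -24, a motif found in 12.4% of windows. The RefSeq table has another Serpinb2 entry, not printed, whose start site is that of the expression table, and from there the same AP-1 match lies at -181 to -175 and the same TATAAA at -116 to -111. Plaur held 3 Sp1 boxes (GGGCGG, in 32.7% of windows), of which the last pair overlap by a base. Serpine2, whose window is not printed, held 6 of them in a sequence of 78.8% GC, against a median of 52.4% over all windows. CCAAT was matched 3 times in Serpinf1 and once, on the reverse strand, in the printed Serpinb2 window, and is in 33.8% of windows. Serpinf2 held no match. The remaining motifs, TGACGTCA (1.55% of windows), GTTAAT (6.43%) and CACGTG (6.02%), were not found in any of these windows. Of the 8 genes, 5 had an entry in the table, and Plau, Plat and Plg had none. A match of this kind describes the letters and does not show a binding site.

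The values are read counts on the exons of a gene, scaled with 1 factor for each library to give nearly equal totals, and they are called normalized values here. The depth was 3071070 to 3825522 reads on genes in the HSC libraries, 4687349 to 5634273 in those of CCl4-fib and 3289758 to 5021156 in those of NASH-fib. At this depth 3 reads correspond to a normalized value of 2.38 to 4.37, and a gene with no more than that in every library of a group is described as being at the floor. Differences between groups were tested with limma on log2(value + 1) over 13651 genes, and a gene was called when its log2 fold change was at least 1 in size and its adjusted p (Benjamini-Hochberg) was under 0.05. All 8 genes passed the filter on low counts, which Plaur and Serpinb2 could do through the groups in which they were high. A library stood apart: NASH-fib replicate 1 correlated with the other NASH-fib libraries at r = 0.768 to 0.815 and with HSC replicate 2, which carries the same label prefix, at 0.793. Members whose call or size it changed in a comparison with NASH-fib are therefore also given without it.

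**Figure D1:**
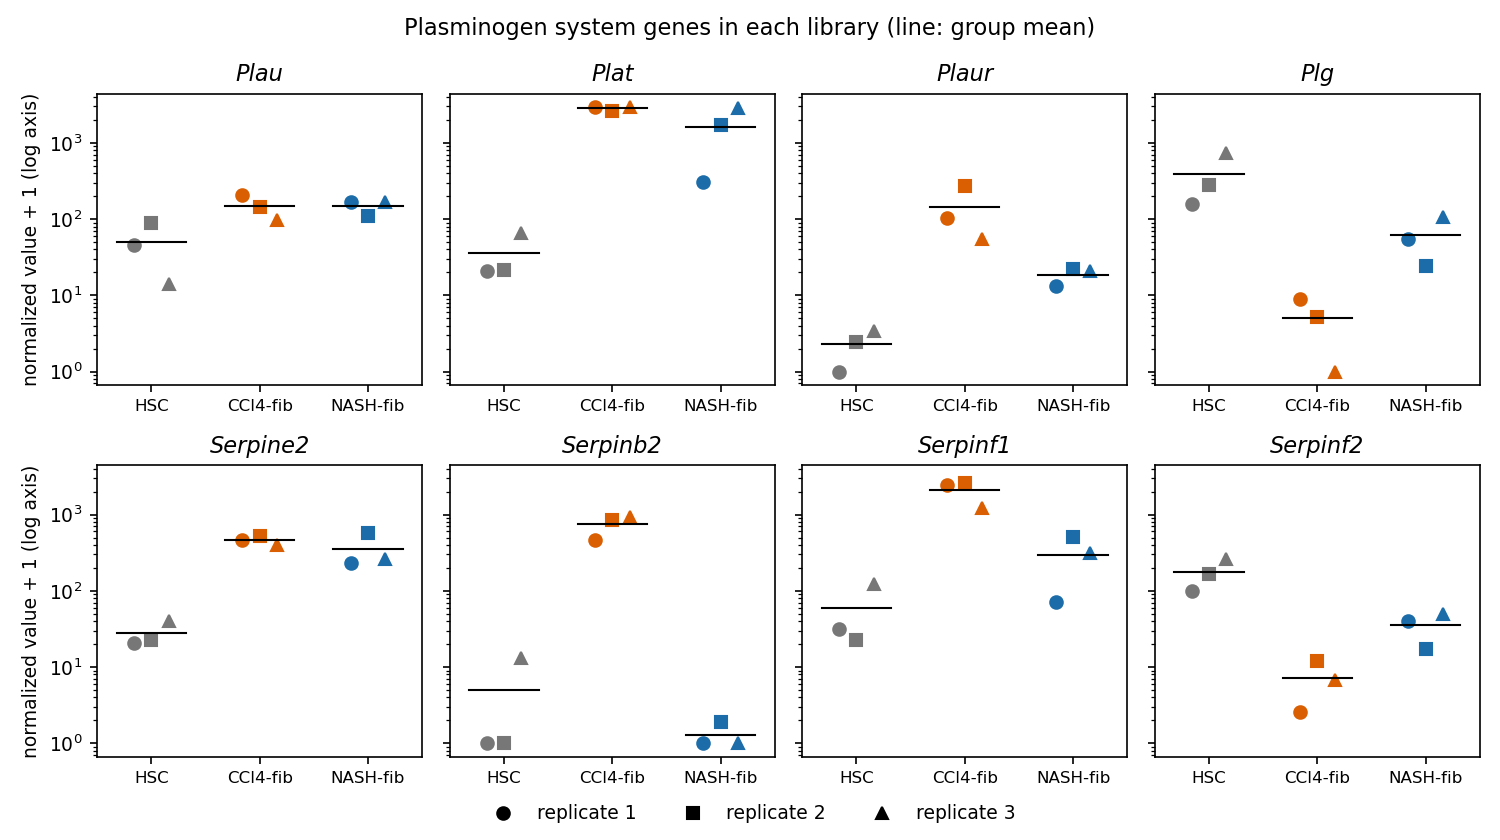
Normalized value + 1 (log axis) of each of the 8 genes in the 9 libraries, with a horizontal line at the group mean and a symbol shape for the replicate number. Plat and Serpine2 were high in both fibroblast groups, Serpinb2 was high in CCl4-fib alone, and Plg and Serpinf2 were highest in HSCs.

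The activators were examined first. Plat, on chromosome 8 (22757722 to 22782848, plus strand, 14 exons), had normalized values of 19.87, 20.39 and 65.76 in the HSC libraries, of 2918.48, 2634.87 and 2976.65 in those of CCl4-fib and of 309.94, 1694.87 and 2836.39 in those of NASH-fib. Every fibroblast library was above every HSC library, and NASH-fib replicate 1 was far below the other two of its group. The mean was 80.5-fold higher in CCl4-fib than in HSCs and 45.7-fold higher in NASH-fib. Plat reached 1.45 reads per base of exon. Its reads and ratios may be understated where it is high, since the counting kept at most 3 reads per position. By limma the log2 fold change was 6.52 (SE 0.74, adjusted p = 0.000156, n = 3 per group) in CCl4-fib and 5.21 (SE 0.74, adjusted p = 0.000961, n = 3) in NASH-fib. Between the fibroblast groups the values overlapped and the difference did not pass the test, with a log2 fold change of -1.31 in NASH-fib against CCl4-fib (95% interval -2.94 to 0.32, limma adjusted p = 0.266). Without NASH-fib replicate 1 that difference was -0.37 on the log2 scale, and the log2 fold change against HSCs was 6.14.

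Plau, on chromosome 14 (20836662 to 20843388, plus strand, 11 exons), moved much less. Its normalized values were 44.42, 88.83 and 13.15 in the HSC libraries, 203.98, 141.18 and 95.41 in those of CCl4-fib and 164.48, 108.66 and 167.08 in those of NASH-fib. All fibroblast libraries were above all HSC libraries, though the lowest CCl4-fib value lay close to the highest HSC value. The means of both fibroblast groups were 3.01-fold that of HSCs. The log2 fold change of 1.87 in CCl4-fib (SE 0.63) was called at a limma adjusted p of 0.0480, whereas that of 1.91 in NASH-fib (SE 0.63) was not called, at an adjusted p of 0.0802. The CCl4-fib call was lost under 15 of 19 alternatives, and without HSC replicate 3 the log2 fold change was 1.14 (limma adjusted p = 0.115). NASH-fib and CCl4-fib differed by 0.04 on the log2 scale, with a 95% interval of -1.35 to 1.43, which leaves room for a difference of either sign.

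The balance of the activators within each library, as the ratio of Plat to Plau per kilobase of exon, was 0.411, 0.211 and 4.59 in HSCs. It was 13.1, 17.1 and 28.6 for the CCl4-fib libraries and 1.73, 14.3 and 15.6 in NASH-fib. The CCl4-fib ratios were above all HSC ratios. The NASH-fib range overlapped that of HSCs through NASH-fib replicate 1.

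Plaur, the receptor that holds uPA at the cell surface (chromosome 7, 24462500 to 24475873, plus strand, 7 exons), was at the floor in HSCs. The HSC libraries had 0, 1 and 2 reads, that is normalized values of 0, 1.46 and 2.39. The values were 101.6, 268.76 and 53.43 for the CCl4-fib libraries and 12.23, 21.38 and 19.66 in NASH-fib, so the 3 groups did not overlap. With 3 reads in all HSC libraries together, the ratio of summed reads per depth was 114 (95% exact interval 38.7 to 554) in CCl4-fib against HSCs and 14.6 (4.74 to 73.1) in NASH-fib against HSCs. These intervals cover counting error only. Plaur was called higher in both comparisons, with limma adjusted p-values of 0.000275 and 0.0147. The call in NASH-fib against HSCs was lost under 5 of 19 alternatives, among them a pseudocount of 10 (log2 fold change 1.29, limma adjusted p = 0.126) and leaving out HSC replicate 1 (adjusted p = 0.0573), NASH-fib replicate 2 (0.0531) or NASH-fib replicate 3 (0.0548). Its mean was 7.96-fold lower in NASH-fib than in CCl4-fib, with a log2 fold change of -2.65 (SE 0.72, limma adjusted p = 0.0429). The call between the fibroblast groups was lost under 11 of 19 alternatives, with a log2 fold change of -2.03 (limma adjusted p = 0.186) when CCl4-fib replicate 2, the highest library, was left out, and of -2.41 (adjusted p = 0.110) without NASH-fib replicate 1. The per-kilobase ratio of Plau to Plaur was 1.20, 0.313 and 1.06 for the CCl4-fib libraries and 8.01, 3.03 and 5.06 in NASH-fib, with no overlap.

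Plg, the substrate of the activators (chromosome 17, 12378609 to 12419384, plus strand, 19 exons), went the other way. Its normalized values were 157.81, 276.67 and 726.89 in the HSC libraries, 7.94, 4.25 and 0 in those of CCl4-fib and 54.37, 23.16 and 105.16 in those of NASH-fib. The groups did not overlap, with HSCs highest and CCl4-fib lowest. The mean in CCl4-fib was 95.3-fold lower than in HSCs, and the log2 fold change was -6.46 (SE 0.90, limma adjusted p = 0.000531). The NASH-fib mean was 6.36-fold lower than that of HSCs, a difference that was not called (log2 fold change -2.61, SE 0.90, limma adjusted p = 0.0937), and 15.0-fold higher than that of CCl4-fib (3.85, SE 0.90, adjusted p = 0.0257). Without NASH-fib replicate 1 the last value was 3.81 (limma adjusted p = 0.0586). That call was lost under 5 of 19 alternatives, among them leaving out CCl4-fib replicate 2 (adjusted p = 0.0795) or NASH-fib replicate 3 (0.0920). Exons of Slc22a3 on the opposite strand overlap Plg, and reads of both strands were counted, so reads of the pair cannot be told apart there. Slc22a3 itself had values of 0 to 13.15 in the HSC libraries, 0.79 to 6.8 in those of CCl4-fib and 8.16 to 60.56 in those of NASH-fib.

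Among the inhibitors of the activators, Serpine2 (chromosome 1, 79794321 to 79858665, minus strand, 9 exons) followed Plat. Its normalized values were 19.87, 21.84 and 39.45 in the HSC libraries, 461.15, 518.81 and 401.66 in those of CCl4-fib and 232.45, 578.02 and 262.41 in those of NASH-fib. All fibroblast libraries were above all HSC libraries, and the fibroblast groups overlapped. The means were 17.0-fold and 13.2-fold that of HSCs. By limma the log2 fold changes were 4.10 (SE 0.44, adjusted p = 0.000120) in CCl4-fib and 3.62 (SE 0.44, adjusted p = 0.000394) in NASH-fib. NASH-fib against CCl4-fib gave -0.48 (95% interval -1.46 to 0.50, limma adjusted p = 0.498). The per-kilobase ratio of Plat to this inhibitor was 0.805, 0.752 and 1.34 in the HSC libraries, 5.10, 4.09 and 5.97 in those of CCl4-fib and 1.07, 2.36 and 8.71 in those of NASH-fib. CCl4-fib ratios were thus all above those of HSCs, while the NASH-fib ratios spread across both ranges.

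Serpinb2 (chromosome 1, 107511510 to 107525600, plus strand, 8 exons) separated the fibroblast groups more than any other member. It had 0, 0 and 10 reads in HSCs, the last being a normalized value of 11.96, and 0, 1 and 0 reads in NASH-fib, the 1 read being a value of 0.89. In CCl4-fib the values were 465.91, 847.95 and 927.34. The 3 CCl4-fib libraries stood above all the others, and NASH-fib was at the floor. The CCl4-fib mean was 187-fold that of HSCs, with a log2 fold change of 8.25 (SE 0.95, limma adjusted p = 0.000170). The HSC mean came from replicate 3 alone, and without that library the log2 fold change was 9.49 against a group at 0. CCl4-fib libraries held 2556 reads against 1 in NASH-fib, a ratio per depth of 2110 with a 95% exact interval of 378 to 83373, for counting error only. NASH-fib against CCl4-fib gave a log2 fold change of -9.18 (SE 0.95, limma adjusted p = 0.00376). The call in each of these comparisons was kept under all 19 alternatives. NASH-fib against HSCs rests on the 10 reads of HSC replicate 3 and was not called (limma adjusted p = 0.678).

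Serpinf1 (chromosome 11, 75410029 to 75422623, minus strand, 8 exons) had normalized values of 30.39, 21.84 and 123.14 in the HSC libraries, of 2429.55, 2624.66 and 1235.5 in those of CCl4-fib and of 70.69, 501.42 and 312.53 in those of NASH-fib. CCl4-fib was above both other groups without overlap, and NASH-fib replicate 1 fell within the HSC range. The CCl4-fib mean was 35.9-fold that of HSCs (log2 fold change 5.48, SE 0.78, limma adjusted p = 0.000630). The NASH-fib mean was 5.04-fold that of HSCs, a difference that was not called (2.33, SE 0.78, limma adjusted p = 0.0858) but was called without NASH-fib replicate 1 (3.15, adjusted p = 0.00974). NASH-fib was 7.11-fold lower than CCl4-fib (log2 fold change -3.15, SE 0.78, limma adjusted p = 0.0314), and without NASH-fib replicate 1 this became -2.33 with an adjusted p of 0.0702. That call was lost under 7 of 19 alternatives, among them leaving out any CCl4-fib library. As for Plat, the reads of Serpinf1 (up to 2.08 per base) may be understated where it is high, since the counting kept at most 3 reads per position.

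Serpinf2, the plasmin inhibitor, lies 9112 bases from Serpinf1 (chromosome 11, 75431736 to 75439501, minus strand, 10 exons) and had the opposite order. Its normalized values were 97.03, 164.55 and 258.24 in the HSC libraries, 1.59, 11.06 and 5.72 in those of CCl4-fib and 39.42, 16.03 and 49.14 in those of NASH-fib. As for Plg, the groups did not overlap, with NASH-fib between the other two. Its CCl4-fib mean was 28.3-fold lower than that of HSCs (log2 fold change -4.76, SE 0.69, limma adjusted p = 0.000703). In NASH-fib it was 4.97-fold lower than in HSCs, which was not called (-2.31, SE 0.69, limma adjusted p = 0.0542). It was 5.69-fold higher in NASH-fib than in CCl4-fib (2.45, SE 0.69, limma adjusted p = 0.0480), a call lost under 15 of 19 alternatives, with a log2 fold change of 2.30 (limma adjusted p = 0.114) without NASH-fib replicate 1. The per-kilobase ratio of Serpinf1 to Serpinf2 was 0.460, 0.195 and 0.700 in the HSC libraries, 2245, 349 and 317 in those of CCl4-fib and 2.63, 46.0 and 9.34 in those of NASH-fib. The neighbours thus changed rank between HSCs and both fibroblast groups in every library.

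**Figure D2:**
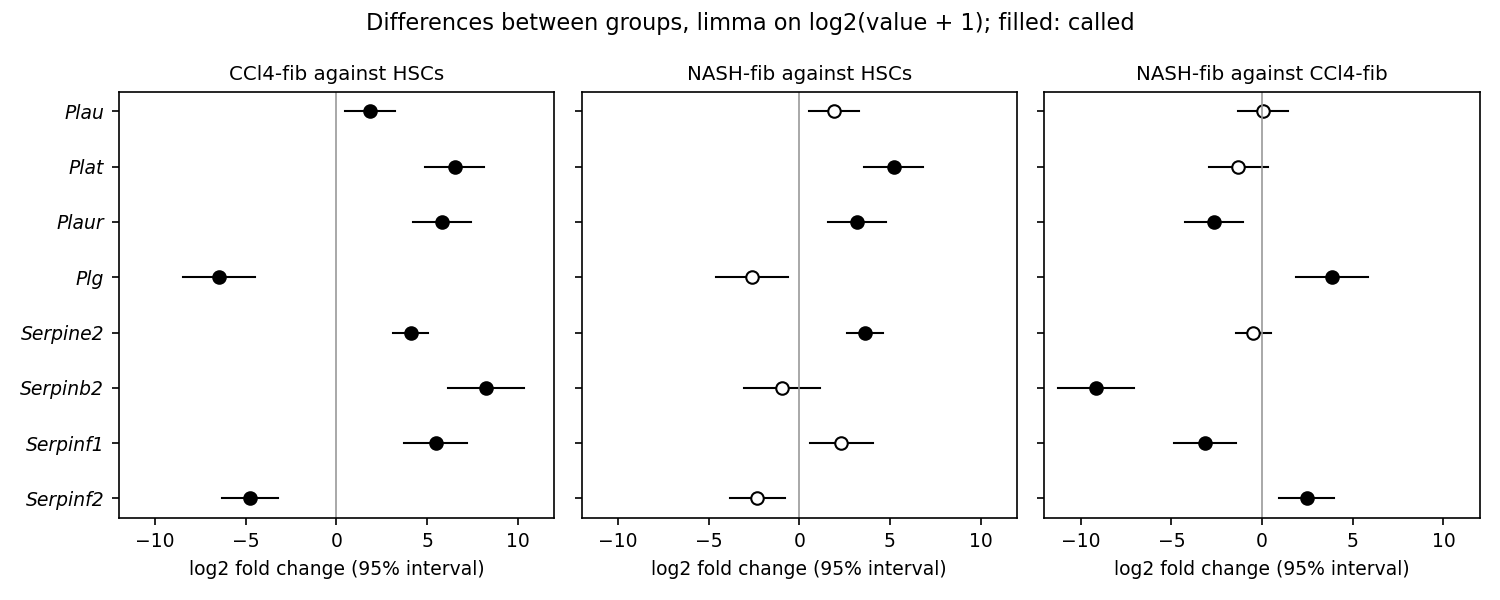
Log2 fold change of each gene with its 95% interval from limma in the 3 comparisons, filled where called. In CCl4-fib against HSCs 8 of 8 were called, in NASH-fib against HSCs 3 of 8 and in NASH-fib against CCl4-fib 5 of 8.

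Over the 8 genes, CCl4-fib against HSCs gave 6 called higher and 2 called lower (Plg and Serpinf2), where 16.2% of all genes tested were called higher, 11.7% lower and 27.8% in either direction. The members' median log2 fold change was 4.79, or 4.65 with Plaur set against the floor, and that of all genes was 0.18. All 8 had groups that did not overlap, 6 with CCl4-fib above (27.8% of all genes) and 2 with it below (20.9%), beside 48.6% of all genes apart in either direction. In NASH-fib against HSCs, Plat, Serpine2 and Plaur were called higher and no member was called lower, against 8.23% of all genes higher, 4.30% lower and 12.5% in either direction. Groups were apart for 6 members, 4 with NASH-fib above (12.7% of all genes) and 2 with it below (11.6%), and for 24.4% of all genes. The members' median was 2.12, or 2.06 with Plaur and Serpinb2 set against the floor, and that of all genes was -0.02. In NASH-fib against CCl4-fib, Plg and Serpinf2 were called higher and Serpinb2, Serpinf1 and Plaur lower, beside 4.97% of all genes higher, 5.66% lower and 10.6% in either direction. Groups were apart for 5 members, 2 with NASH-fib above (17.1% of all genes) and 3 with it below (22.0%), and for 39.1% of all genes. The members' median was -0.90 and that of all genes -0.11. The first 2 comparisons share the HSC libraries. With NASH-fib replicate 1 and HSC replicate 2 both left out, the counts were 6 higher and 2 lower in CCl4-fib against HSCs, 5 higher and 0 lower in NASH-fib against HSCs (Plau and Serpinf1 being added), and 1 higher (Plg) and 2 lower (Serpinb2 and Serpinf1) in NASH-fib against CCl4-fib. Leaving out NASH-fib replicate 1 alone left 0 higher and 1 lower in the last comparison. The call that then remained was Serpinb2, as it was when CCl4-fib replicate 2 or NASH-fib replicate 3 was left out instead. The labels carry a prefix, a pair of numbers whose meaning they do not give, that some libraries share. Within a prefix, CCl4-fib against HSCs had the sign of the whole comparison for 8 of 8 genes in both prefixes that hold such a pair. NASH-fib against CCl4-fib had it for 7 of 8 (all but Plau) in the first such prefix and 8 of 8 in the second, and NASH-fib against HSCs for 7 of 8 (all but Serpinb2). The pairs hold 1 library against 1, or 2 NASH-fib libraries against 1 of CCl4-fib. A member whose groups did not overlap could not change sign, so for those members the outcome was fixed in advance.

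**Figure D3:**
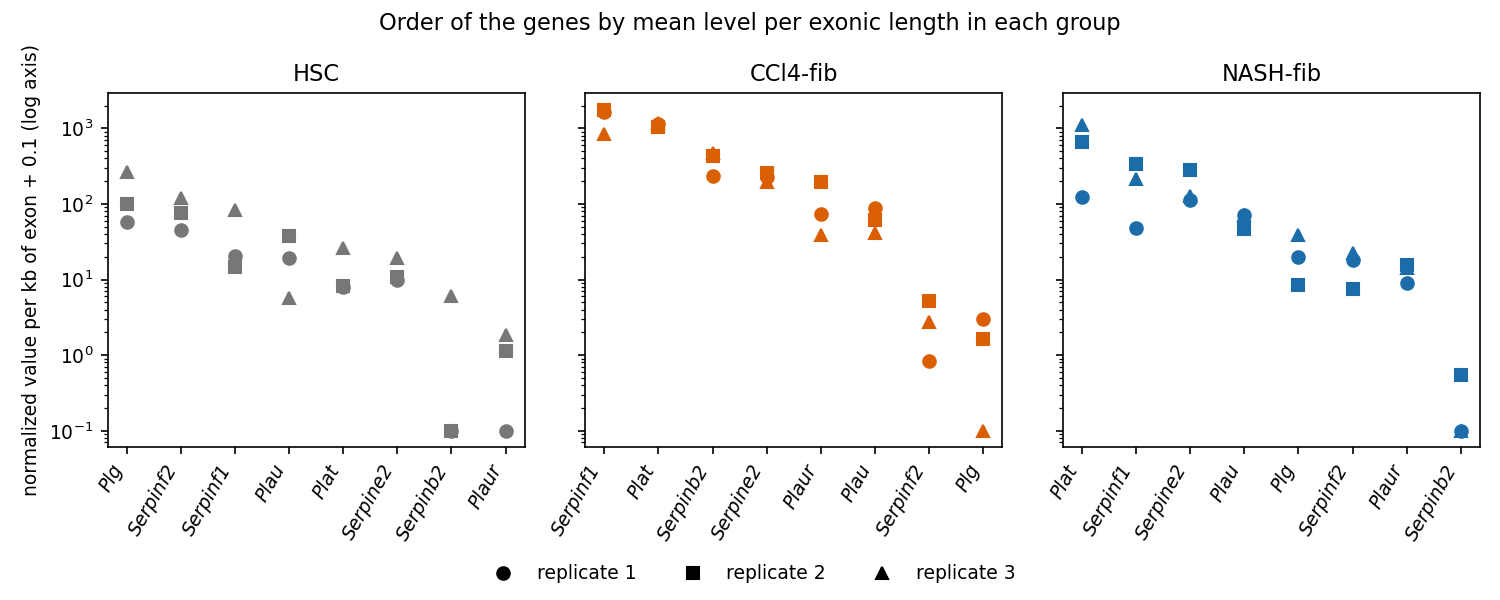
Normalized value per kilobase of exon + 0.1 (log axis) of the 8 genes in each library, ordered by the group mean. Plg led in HSCs, Serpinf1 and Plat in CCl4-fib and Plat in NASH-fib.

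The order of the genes by level per kilobase of exon differed between the groups. In HSCs the mean levels per kilobase ran from Plg (142) and Serpinf2 (79.5) through Serpinf1 (39.4), Plau (20.9), Plat (13.9) and Serpine2 (13.2) to Serpinb2 (2.01) and Plaur (0.925). Each of the first 6 overlapped its neighbour in that order. Serpinb2 overlapped Plaur and lay below Serpine2 in every library, though its highest library (6.04) was above the lowest of Plau (5.64). In CCl4-fib, Serpinf1 (1413) and Plat (1120) were followed by Serpinb2 (377) and Serpine2 (225), then by Plaur (102) and Plau (63.0), and last by Serpinf2 (2.81) and Plg (1.49). The members of each of these 4 pairs overlapped, and the pairs did not overlap one another. In NASH-fib the order was Plat (636), Serpinf1 (199), Serpine2 (175), Plau (63.0), Plg (22.3), Serpinf2 just below it, Plaur (12.8) and Serpinb2 (0.150). The first 3 overlapped in turn, as did Plg, Serpinf2 and Plaur, whereas Plau and Serpinb2 stood apart from their neighbours. The highest library of Plau (71.7) was nevertheless above the lowest of Serpinf1 (47.6).

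Plg and Serpinf2 are made mainly by hepatocytes, and markers of other liver cells moved with them. The summed normalized value of 15 hepatocyte markers (Alb, Apoa1 and others) was 23384 to 52897 in the HSC libraries, 12261 to 15583 in those of CCl4-fib and 13903 to 43578 in those of NASH-fib, and none of the 15 was at 0 in any group. Most of the CCl4-fib sum was Trf, the transferrin gene, which was 9622.17 to 12315.9 there against 3501.12 to 8239.71 in HSCs, while Alb had a log2 fold change of -4.02, Apob of -6.23 and the list a median of -3.63. CCl4-fib had 11 of these markers called lower than HSCs, and NASH-fib had 9 called higher than CCl4-fib and 0 called in either direction against HSCs, with a median of -0.49. Markers of sinusoidal endothelial cells (10 genes) summed to 10136 to 24152 in the HSC libraries, 303 to 399 in those of CCl4-fib and 1518 to 5768 in those of NASH-fib, and those of macrophages (10 genes) to 3605 to 13341, 260.3 to 458 and 786 to 2858. All 10 endothelial markers and 7 of the 10 macrophage markers were called lower in CCl4-fib than in HSCs. Against CCl4-fib, NASH-fib had 10 and 4 of them called higher. Over all genes tested, 11.7% were called lower in CCl4-fib than in HSCs and 4.97% higher in NASH-fib than in CCl4-fib. In NASH-fib against HSCs 12.5% of all genes were called in either direction. The part of these cells in the Plg and Serpinf2 results was not tested. The ratio of Serpinf2 to Plg per kilobase was 0.771, 0.746 and 0.446 in HSCs and 0.909, 0.868 and 0.586 in NASH-fib. In CCl4-fib it was 0.251 and 3.26 in replicates 1 and 2, from few reads, and had no value in replicate 3, where Plg was at 0.

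**Figure D4:**
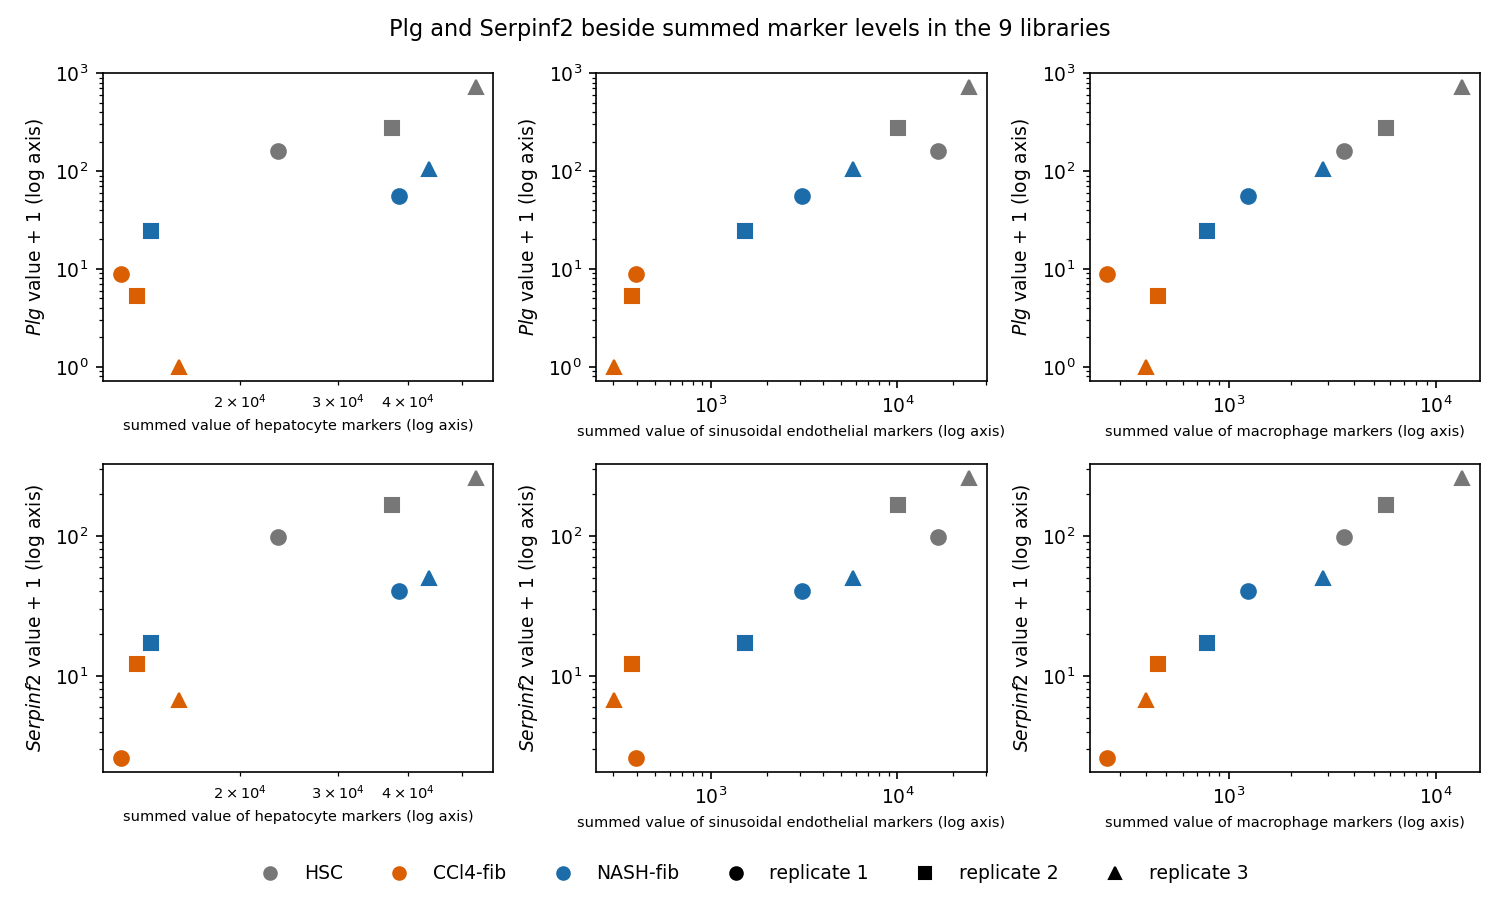
Normalized value + 1 of Plg (top) and Serpinf2 (bottom) against the summed normalized value of markers of hepatocytes, sinusoidal endothelial cells and macrophages in the 9 libraries, all axes log. The CCl4-fib libraries lie lowest in all 6 panels on the vertical axis.

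Beside the members that were higher in fibroblasts than in HSCs, the sums of mesothelial, smooth muscle and cholangiocyte markers were higher in both fibroblast groups. Serpinb2, high in CCl4-fib alone and at the floor in NASH-fib, did not share this pattern. Mesothelial markers (5 genes) summed to 154 to 574 in the HSC libraries, 9989 to 14579 in those of CCl4-fib and 5375 to 17927 in those of NASH-fib, and smooth muscle markers (6 genes) to 99.0 to 172, 3001 to 13941 and 4994 to 20361. Cholangiocyte markers (6 genes) summed to 37.4 to 94.6, 1396 to 3230 and 1048 to 1219. Krt19 made up most of this sum in each CCl4-fib library (770.88 to 2698.65). Against HSCs, Krt19, Krt7 and Sox9 passed the test in CCl4-fib, with log2 fold changes of 7.75, 5.03 and 2.73. Epcam (1.21) and Cdh1 (-0.31) did not pass there, and their values overlapped those of HSCs. For NASH-fib against HSCs, all 5 markers tested passed as higher, beside 8.23% of all genes. Casq2 was at 0 reads in HSCs, and so was Cldn4, which was low in the fibroblasts too (0 to 5.10 in CCl4-fib, 0.89 to 5.90 in NASH-fib) and was not tested. The part of these cells in the results for Plau, Plat, Plaur, Serpine2, Serpinf1 and Serpinb2 was not tested. Between the fibroblast groups the mesothelial and smooth muscle sums overlapped and the cholangiocyte sums did not. Single markers of these lists were lower in NASH-fib than in CCl4-fib without overlap, with log2 fold changes of -1.67 for Wt1 and -1.99 for Smtn, both called, and of -2.33 for Upk3b, not called. Krt19 was also below the CCl4-fib range in every NASH-fib library and was not called (limma adjusted p = 0.0502). Other cholangiocyte markers went the opposite way without overlap. Cdh1 (log2 fold change 3.58) and Epcam (3.40) were called higher in NASH-fib, and Sox9 (1.05) was not called. Neutrophil markers (8 genes) summed to 50.2 to 1053, 5.55 to 78.2 and 608 to 6415 and lymphocyte markers (8 genes) to 44.4 to 115, 5.73 to 12.7 and 75.7 to 277, both lowest in CCl4-fib, in which Cd3e, Cd3g, Nkg7 and Cd4 were at 0 reads. The labels of the groups could be checked against the stellate and fibroblast lists. Quiescent stellate markers (8 genes) summed to 46808 to 59502 in HSCs, above 5165 to 18013 for CCl4-fib and 17290 to 31545 in NASH-fib. Most of the NASH-fib sum was Rgs5 (15987.36 to 29829.97), not called there against HSCs (log2 fold change 0.08). Of the 7 tested, 6 were called lower in NASH-fib than in HSCs, beside 4.30% of all genes. Activated fibroblast markers (8 genes) summed to 20543 to 30746, 55964 to 61827 and 35148 to 43467. Most of the HSC sum was Dcn (16290.52 to 23916.09), at -0.88 in CCl4-fib and -0.57 in NASH-fib, neither called. Against HSCs, 6 of the 8 were called higher in CCl4-fib and 5 in NASH-fib, beside 16.2% and 8.23% of all genes.

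The surroundings of the system were followed in a pair of lists. The first held 12 genes for plasminogen and activator receptors, their clearance and related surface proteins. In CCl4-fib against HSCs 6 of 12 passed the test as higher and 0 as lower. The numbers were 4 and 0 for NASH-fib against HSCs and 0 and 2 for NASH-fib against CCl4-fib. Over all genes tested, the shares called higher and lower were 16.2% and 11.7%, 8.23% and 4.30%, and 4.97% and 5.66%, in that order. The list's median log2 fold changes were 2.31, 0.50 and -0.47. The 2 called lower in the last comparison became 0 when any CCl4-fib library or NASH-fib replicate 3 was left out. Vldlr, an endocytic receptor that takes up activator and inhibitor complexes, had values of 1.17, 0 and 1.2 in the HSC libraries, 123.82, 129.28 and 136.43 in those of CCl4-fib and 335.76, 211.08 and 182.8 in those of NASH-fib. It was thus at the floor in HSCs, with a ratio of summed reads per depth of 154 (95% exact interval 42.4 to 1275) for CCl4-fib and 277 (76.4 to 2293) for NASH-fib. Sorl1, another member of that receptor family, was also at the floor in HSCs with 1 read in all, and ranged from 7.65 to 150.01 in CCl4-fib and from 19.03 to 130.03 in NASH-fib. Both were called higher in both groups (limma adjusted p = 2.86e-05 and 1.67e-05 for Vldlr, 0.00721 and 0.00609 for Sorl1). Fap, a surface protease of activated fibroblasts, was called higher at log2 fold changes of 3.44 and 4.03 (SE 0.69 each, limma adjusted p = 0.00412 and 0.00284). Lrp1, the main clearance receptor for activators bound to inhibitors, was lower in NASH-fib than in CCl4-fib by a log2 fold change of -2.16 (SE 0.59, limma adjusted p = 0.0435), and so was Mrc2, a collagen uptake receptor that associates with uPAR (-1.51, SE 0.33, adjusted p = 0.0213). Anxa2 and S100a10, which form a surface receptor for tPA and plasminogen, were not called in any comparison.

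The second list held 16 genes of fibrin and other regulators of fibrinolysis, of which 13 were tested (Serpina5, A2m and F12 were not). CCl4-fib against HSCs had 1 called higher and 8 lower, NASH-fib against HSCs 2 and 0, and NASH-fib against CCl4-fib 9 and 0. The shares of all genes called higher and lower were 16.2% and 11.7%, 8.23% and 4.30%, and 4.97% and 5.66%. The list's medians were -4.25, -0.94 and 3.32. The 9 higher in the last comparison became 0 when NASH-fib replicate 3 was left out. Most of those lower in CCl4-fib are plasma proteins of hepatocyte origin, the list being led by Pzp, a broad protease inhibitor (log2 fold change -5.76), Klkb1, plasma prekallikrein (-5.17), and F13b, a subunit of factor XIII (-4.94), with limma adjusted p-values of 0.000560, 0.00193 and 0.0109. In NASH-fib against CCl4-fib, Pzp was higher by 4.20 and Fgb, the fibrinogen β chain, by 3.45 on the log2 scale (limma adjusted p = 0.0147 and 0.0185). These genes went with the hepatocyte markers given above, whose part in them was not tested. F13a1, the catalytic subunit of the fibrin-stabilizing factor XIII, had values of 0, 1.46 and 0 in the HSC libraries, 0.79, 1.7 and 0.95 in those of CCl4-fib and 20.39, 48.09 and 94.35 in those of NASH-fib. It was at the floor in both other groups, and NASH-fib had 165 reads against 4 in CCl4-fib, a ratio per depth of 50.0 (95% exact interval 19.2 to 186). Serpini1, neuroserpin, an inhibitor of tPA, had values of 107.55, 64.07 and 52.6 in the HSC libraries, 1292.16, 130.98 and 231.84 in those of CCl4-fib and 2402, 2357.5 and 1306.15 in those of NASH-fib. The groups did not overlap, and its log2 fold changes against HSCs were 2.24 (SE 0.72, limma adjusted p = 0.0403) in CCl4-fib and 4.75 (SE 0.72, adjusted p = 0.00140) in NASH-fib.

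**Figure D5:**
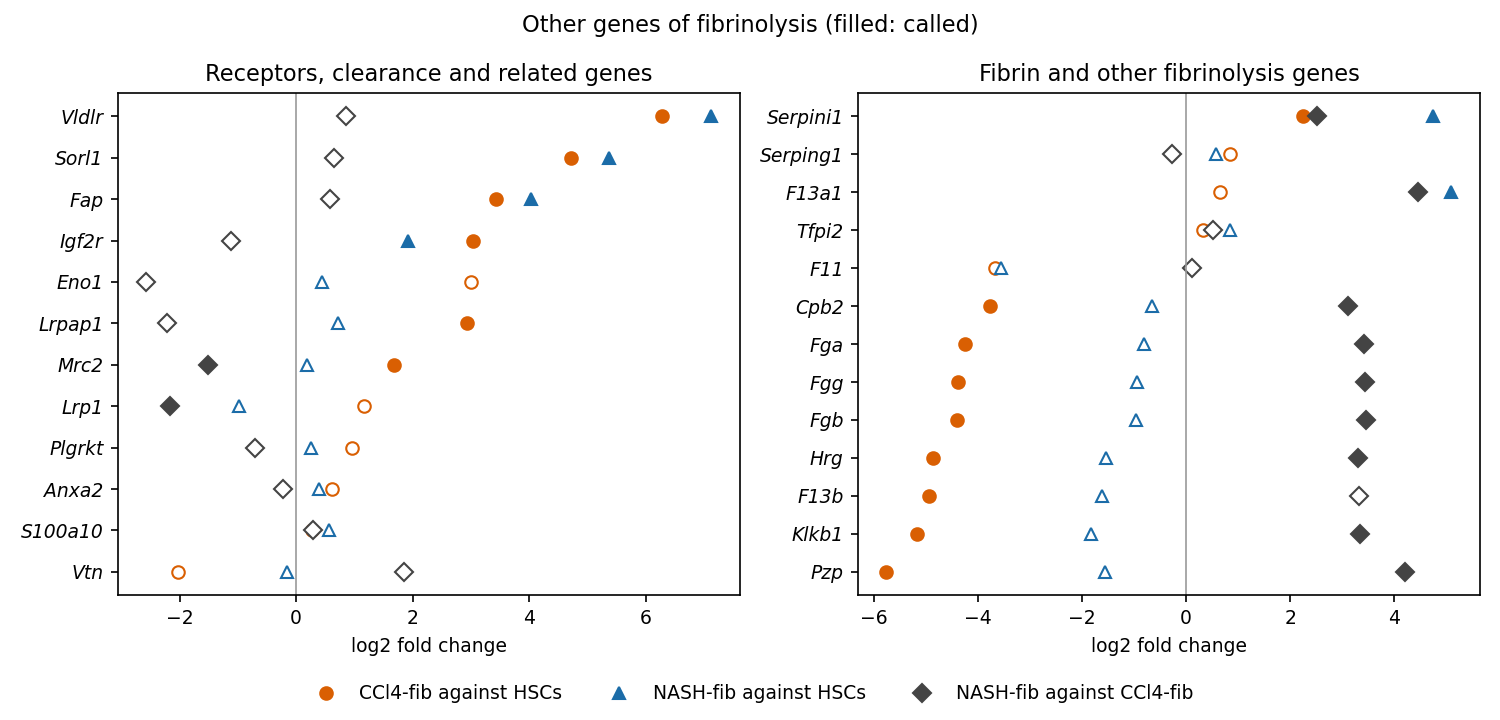
Log2 fold changes from limma of the genes tested in both lists, 12 on the left and 13 on the right, with a symbol for each of the 3 comparisons, filled where called. Vldlr, Sorl1 and Fap lie right of 0 against HSCs in both fibroblast groups, and the fibrinogen genes lie left of 0 in CCl4-fib and right of it in NASH-fib against CCl4-fib.

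The genes whose log2(value + 1) over the 9 libraries was most like that of each member are given as a description, since the libraries share groups. For Plat they were Lrrn4cl (r = 0.994), 6820408C15Rik (0.992) and Mgp (0.992), and for Serpine2 they were Fbln1 (0.990), Arhgap44 (0.988) and Nr4a1 (0.987). Plau had lower values, with 2810403D21Rik at 0.974, Flrt3 at 0.947 and Edn1 at 0.938. The nearest to Plaur were Ptprf (0.978), Tubb2a (0.974) and Entpd2 (0.973). For Serpinb2 they were Dpysl5 (0.997), Cdc25c (0.993) and Pex6 (0.990), and for Serpinf1 Mfap2 (0.994), Meis1 (0.985) and Nucb2 (0.983). Plg was nearest to Cd5l (0.988), Aif1 (0.974) and Clec1b (0.974), and Serpinf2 to Vsig4 (0.986), Adgre4 (0.983) and C8b (0.982).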

How the data were processed

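Single-end RNA sequencing reads from 9 libraries were used. Per the labels and the file header, the authors amplified RNA with the SMARTer kit, aligned reads to mm10 with STAR, and counted reads of either strand on RefSeq exons with HOMER (at most 3 reads per position, 1 entry per gene). The deposited signal is these counts multiplied by 1 factor per library, in a normalization over 10 libraries of which 9 are among the columns. Every library sums to between 4471988 and 4471995, and 100% of the values were whole multiples of the lowest step of their library (tolerance 0.0051 in value), which gave the reads behind them. No library was a copy of another (chi-square per gene at least 18.6 between pairs).

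The members and lists were chosen with earlier results of these data known. They were matched by symbol. All 8 members were named, as were up to 3 called genes of each context list, comparison and direction with the largest change, and the 3 tested genes with the highest Pearson correlation to each member. Igf2r, Lrpap1 and the other called genes of the lists are counted. A gene of the system outside the list is not reported here. Motifs were chosen after values were seen.

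Since the unit is not counts, limma 3.58.1 (R 4.3.3) was fitted to log2(value + 1) of 13651 genes kept by the filterByExpr function of edgeR 4.0.16 (minimum count 10, on the recovered reads), with a trend and 1 fit over 3 groups. The Benjamini-Hochberg adjustment covered all genes tested. The script was tested on simulated data. Replicates were pools of mice. An exact permutation test of 3 against 3 could not go below 0.1 and was not used. The alternatives were edgeR's quasi-likelihood test with TMM and DESeq2 1.42.0 (both on recovered reads), TMM scaling, pseudocounts of 0.5 and 10, no filter, the 2 groups alone, replicate number or label prefix as a term, each library left out, and, chosen after seeing the data, HSC replicate 2 and NASH-fib replicate 1 left out together. Ratios involving at most 3 reads per library used the exact binomial interval. Depth and its floor are given in the report. Columns of per-sample values left unused numbered 0.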

Additional observations from a re-analysis of the deposited data

Results flagged for a closer look

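In the comparison of NASH-fib with CCl4-fib, which is the difference between their effects against HSCs, 5 members differed by limma (adjusted p under 0.05). Of all genes tested, 10.6% were called there. The log2 fold changes were -2.65 for Plaur, 3.85 for Plg, -9.18 for Serpinb2, -3.15 for Serpinf1 and 2.45 for Serpinf2. Of these, the call for Serpinb2 was kept under every alternative run, and the others were each lost under at least 5 of 19. In the context lists the same test picked out Lrp1 at -2.16 and Mrc2 at -1.51, both lower in NASH-fib. Higher in NASH-fib were Cpb2 at 3.11, Serpini1 at 2.51, Pzp at 4.20, Hrg at 3.31, Klkb1 at 3.35, F13a1 at 4.46, Fga at 3.42, Fgb at 3.45 and Fgg at 3.44 on the log2 scale, and 0 of these 9 were called without NASH-fib replicate 3. Groups of 3 libraries are too small for a test of single outlying samples.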

How the results depend on the processing

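Of the 456 member values recomputed (24 log2 fold changes under 19 alternatives), 380 kept their direction and their side of the threshold, 58 lost the call, 12 gained one and 6 changed sign. Plat and Serpine2 in all 3 comparisons, Serpinb2 in both comparisons that involve CCl4-fib, and every member except Plau in CCl4-fib against HSCs kept direction and side of the threshold under all 19, though their sizes moved (Plat in NASH-fib against CCl4-fib from -1.97 to -0.37, Serpinb2 in CCl4-fib against HSCs from 5.80 to 9.49, Plaur there from 3.48 to 6.69). The sign changes were in values that had not been called. Plau in NASH-fib against CCl4-fib became -0.12 with the label prefix as a term, -0.24 to 0.31 with 1 library left out (below 0 when CCl4-fib replicate 3 at -0.24, NASH-fib replicate 1 at -0.06 or NASH-fib replicate 3 at -0.07 was the one) and -0.06 with HSC replicate 2 and NASH-fib replicate 1 both left out. Serpinb2 in NASH-fib against HSCs ran from -1.54 to 0.31 with 1 library left out and was above 0 without HSC replicate 3, the library with all its HSC reads. The causes were not tested otherwise.

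In NASH-fib against CCl4-fib, members called higher fell from 2 to 1 with a pseudocount of 0.5 or 10, no filter, the 2 groups alone, the label prefix as a term, or HSC replicate 2 and NASH-fib replicate 1 left out, and members called lower from 3 to 1 with the label prefix. Leaving out 1 library gave 0 to 2 higher and 1 to 3 lower. In NASH-fib against HSCs, members called lower rose from 0 to 2 with DESeq2 and with a pseudocount of 10 and were 0 to 1 with 1 library left out, and members called higher were 5 with HSC replicate 2 and NASH-fib replicate 1 left out.

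Over all genes, the label prefix gave 1422 higher and 1054 lower in CCl4-fib against HSCs, 549 and 119 in NASH-fib against HSCs, and 344 and 249 in NASH-fib against CCl4-fib. DESeq2 gave 1518 and 1161 in the last. With 1 library left out, CCl4-fib against HSCs had 1335 to 2836 higher, NASH-fib against HSCs 320 to 689 lower, and NASH-fib against CCl4-fib 94 to 766 higher and 85 to 994 lower, the lowest counts coming when NASH-fib replicate 3 or CCl4-fib replicate 2, respectively, was dropped. The edgeR (TMM) and DESeq2 tests, which also change the model, moved the median of all genes by -0.18 and -0.16 in CCl4-fib against HSCs. In NASH-fib against CCl4-fib they moved it by 0.25 and 0.23. There the share of calls that were higher went from 46.7% to 58.8% and 56.7%. With limma on TMM-scaled values, the median moved by -0.11 and 0.18 in these comparisons, and the share in the latter was 55.7%. No member called by limma changed sign under these settings.

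Of the values recomputed for the named context genes, 290 kept the call and 33 lost it, 0 changing sign. Lrp1 lost it under 11 of 19 alternatives, Serpini1 in CCl4-fib against HSCs under 8, Mrc2 under 5, Fgb under 4, F13a1 in NASH-fib against CCl4-fib under 2, and Pzp there, with Sorl1 and F13a1 in NASH-fib against HSCs, under 1 each.

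Replicate numbers did not pair the libraries, the deviations of same-numbered libraries correlating at -0.47 to 0.51. The largest correlation between libraries of different groups was 0.65, for HSC replicate 2 and NASH-fib replicate 1, which share a label prefix. With a replicate block, NASH-fib against CCl4-fib had 0 members higher, 1 lower and 457 genes lower in all, and CCl4-fib against HSCs had 5 members higher.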
